A study of Neurospora crassa with 6 samples.

Results

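Light of 5000 lux was compared with darkness in hyphae of Neurospora crassa, a filamentous fungus, across all genes and by function. The comparison takes 4 of the 6 libraries of the series by their labels, 2 at 5000 lux and 2 in darkness, and the remaining 2, at 1000 lux, entered the same model and are given where they add to a result. Both groups carry the same labelled genotype, △cry,△vvd,△wc-1, and no strain with these genes intact was analysed here, so every difference is between light and darkness within 1 mutant background. Per the labels' protocols the cultures came from minimal slants and were kept for 45 min in 2% glucose medium under 5000 lux, under 1000 lux or in the dark, and the sources used here do not give the spectrum of the light. The unit is RPKM, a read count corrected for gene length and sequencing depth, from polyadenylated RNA. Of 10559 genes in the table, 7841 had at least 1 RPKM in at least 2 of the 6 libraries and were tested. Whether the 2 libraries of a group came from separate cultures is not stated, so the p-values reflect the spread among these samples alone, which may be technical.

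In wild type Neurospora, blue light is sensed mainly by White Collar-1, a photoreceptor and transcription factor that works with its partner White Collar-2. The complex turns on carotenoid synthesis, asexual sporulation (conidiation) and the clock gene frq, and VIVID, a second blue-light receptor, dampens the response. The gene cry encodes a cryptochrome, and the genome also holds phytochromes and an opsin. Light also sets the circadian clock, and in wild type many genes of metabolism are under clock control.

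The reads on genes, worked out from the steps in the RPKM values, came to 19950000 and 16460000 at 5000 lux, against 17310000 and 21630000 in darkness, and 1 read in a gene of 2000 bp was worth 0.0177 to 0.0233 RPKM over the 6 libraries, counting error only. Across genes, Pearson correlations of log2(RPKM + 1) were 0.9933 between the 5000 lux libraries, 0.9903 between the dark libraries and 0.9829 to 0.9842 between the groups. The 3 genes that the labels give as deleted had reads in every library: wc-1 had 6.95 and 6.31 RPKM at 5000 lux, against 9.04 and 7.78 RPKM in darkness, vvd had 2.47 and 2.70 RPKM at 5000 lux, against 3.21 and 3.44 RPKM in darkness, and cry, which overlaps NCU00583, had 2.13 and 2.12 RPKM at 5000 lux, against 2.19 and 2.18 RPKM in darkness. None of the 3 passed the test (limma adjusted p = 0.15, 0.311 and 0.948), and since the reads may come from any stretch of a gene, these levels do not check the genotype. Markers of hyphae, the labelled tissue, were present: hex-1 (Woronin body), act (actin), so, ham-2 and pma-1 (plasma membrane proton pump) summed to 2153 and 2169 RPKM at 5000 lux, against 2184 and 2396 RPKM in darkness. This sum was mostly hex-1, act and pma-1, while so and ham-2 each had 16.96 to 21.49 RPKM in these libraries. The 5 conidial markers, of which con-6 and con-13 stayed under 1 RPKM in all 4 libraries, summed to a level that was mostly the hydrophobin gene eas, 183 and 254 RPKM at 5000 lux, against 237 and 194 RPKM in darkness. The 5 markers of sexual structures summed to 72.5 and 72.8 RPKM at 5000 lux, against 69.03 and 69.15 RPKM in darkness. This sum was mostly asd-1, with 66.8 and 65.4 RPKM at 5000 lux, against 62.7 and 63.3 RPKM in darkness. Of the markers of hyphae, conidia and sexual structures, 5, 3 and 4 were tested and 0 were called by limma or voom. An unadjusted limma p under 0.05 was found for 1, 2 and 0 of them, against 1950 of all 7841 tested genes. In bulk RNA, fewer cells of a type and less RNA per cell cannot be told apart.

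Many transcripts differed between 5000 lux and darkness, most of them by less than 2-fold. At an adjusted p under 0.05 (limma, Benjamini-Hochberg over all genes tested), 525 genes were higher at 5000 lux (6.7% of those tested). Another 229 were lower (2.92%). These percentages are the background against which every count of limma calls below is read. For the other counts, 1950 of the 7841 tested genes had an unadjusted limma p under 0.05 in either direction. Voom on the recovered reads called 613 genes higher and 332 lower. Among the genes called higher the median log2 fold change was 0.59 and 268 (51%) rose by at least 1.5-fold. Among those called lower the median was -0.51 and 80 (34.9%) fell by at least 1.5-fold. A change of 2-fold or more was seen in 23 called genes that were higher (0.293%) and 12 that were lower (0.153%). The 2 libraries of one group lay wholly above or below those of the other in 52.9% of all tested genes (29.8% higher and 23.1% lower at 5000 lux). Higher calls made up 69.6% of all calls, against 58.6% with median-of-ratios scaling and 57.2% with quantile normalization, which call more genes lower. The median log2 fold change over all tested genes was 0.0227, and it was -0.00628 with median-of-ratios scaling, -0.0104 with quantile normalization and -0.00622 without dark replicate 2.

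**Figure D1:**
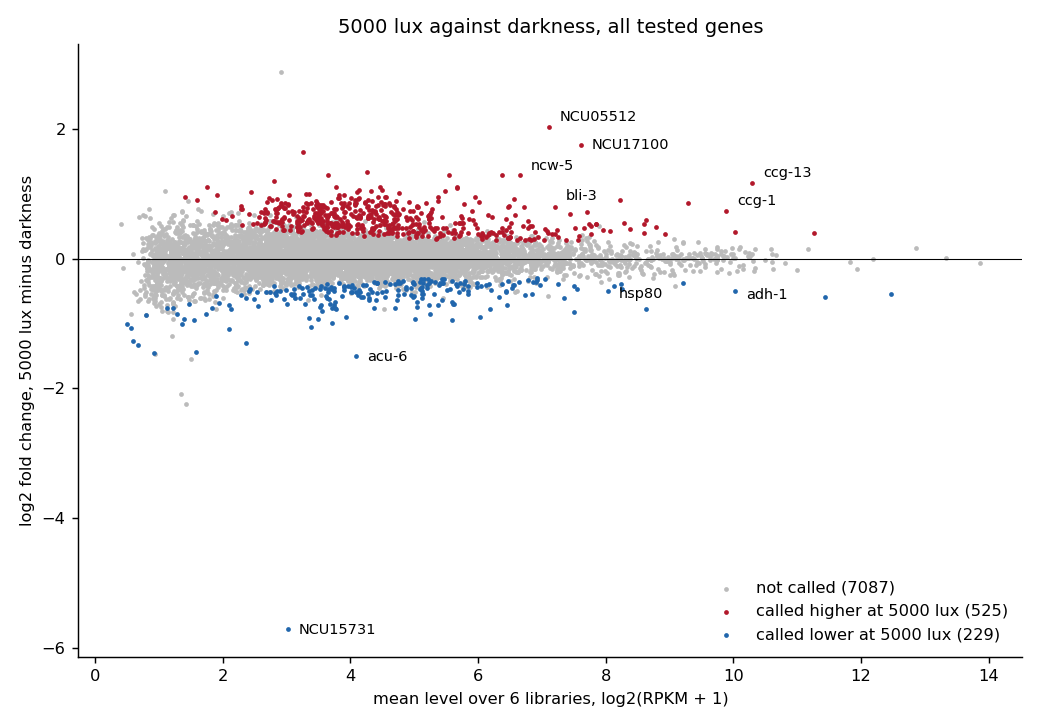
Log2 fold change at 5000 lux minus darkness (vertical axis) against the mean level over 6 libraries as log2(RPKM + 1) (horizontal axis), 1 point a tested gene. Red points are the 525 genes called higher, blue points the 229 called lower and grey points those not called, and most called genes lie within 1 unit of the zero line.

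The calls fell at all expression levels, least often among the weakest genes, and on each of the 7 chromosomes. Genes averaging 10 to 50 RPKM over the 6 libraries were called higher in 8.86% and lower in 3.48% of 3452 cases, those of at least 200 RPKM in 7.23% and 2.83% of 318, and those under 5 RPKM in 0.986% and 1.73% of 1622. In the weakest class alone, lower calls outnumbered higher ones. Over all levels, 6 called genes passed the level filter through the dark libraries alone and 0 through the 5000 lux libraries alone. The filter thus admitted some lower calls of weak genes by their dark level, so this excess is a description only. On the 7 chromosomes the share called higher was 5.88% to 7.05%, and the share called lower 2.2% to 4.86%, with chromosome VII holding 38 lower and 46 higher calls among 782 tested genes. Of 17 tested ribosomal RNA genes 3 were lower and 0 higher by limma (0 higher at an unadjusted p under 0.05, 0 by voom), and ribosomal RNA took 3.7% and 4.31% of reads at 5000 lux, against 4.17% and 5.48% in darkness. Genes with a symbol were called in 9.06% of 1082 cases and genes without one in 9.71% of 6759, so 656 of the 754 calls lie in genes whose function the reference table does not name. The counts rested most on the light libraries: 104 higher and 38 lower genes were called when 5000 lux replicate 1 was left out, and 196 and 53 when 5000 lux replicate 2 was. Leaving out dark replicate 1 gave 141 lower and 527 higher genes.

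**Figure D2:**
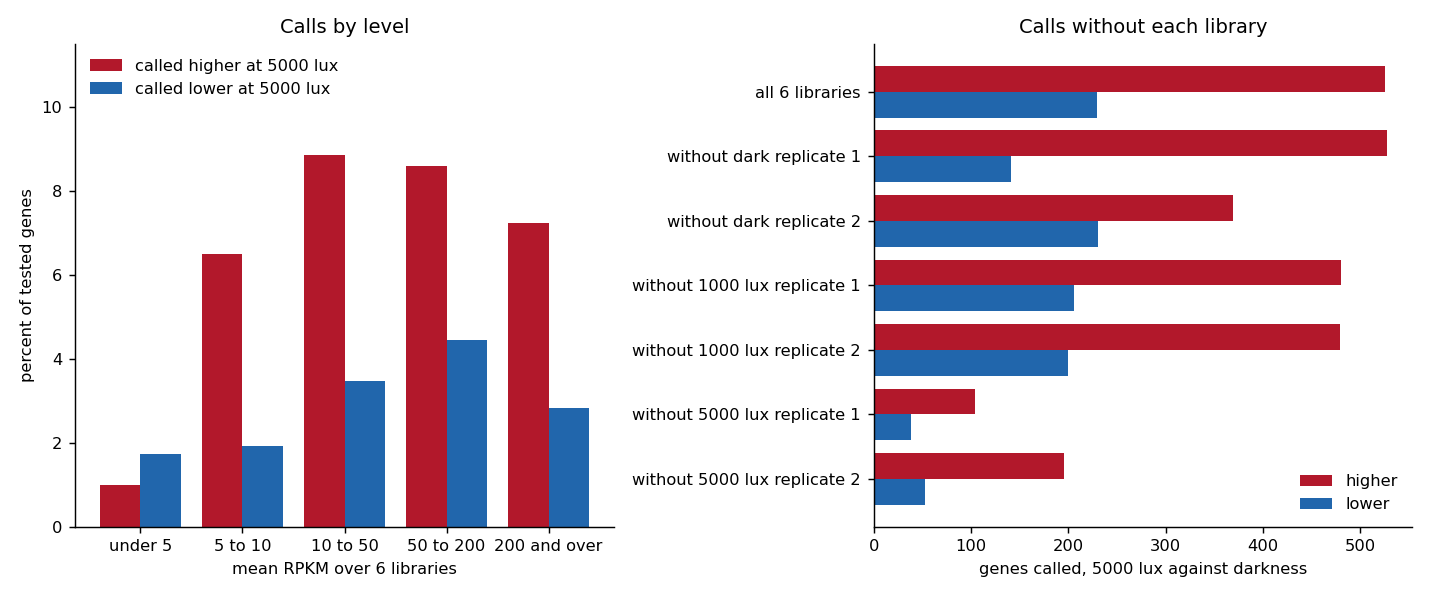
Left, percent of tested genes called higher (red) or lower (blue) at 5000 lux in 5 classes of mean RPKM. Right, number of genes called higher and lower with all 6 libraries and without each library in turn. Calls were rarest under 5 RPKM, and the counts were lowest without either 5000 lux library.

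The largest increases among genes with a symbol were in a cell wall protein gene and a clock-controlled gene. ncw-5 (NCU00716, overlapping NCU00715), which encodes a non-anchored protein of the cell wall, had 120.5 and 95.8 RPKM at 5000 lux, against 47.9 and 39.6 RPKM in darkness (log2 fold change 1.28 ± 0.15 SE, adjusted p = 0.00151 by limma). ccg-13 (NCU08907) had 1436 and 1235 RPKM at 5000 lux, against 655 and 532 RPKM in darkness (log2 fold change 1.17 ± 0.13 SE, adjusted p = 0.00146 by limma). In both genes each light library was far above either dark library. prm-3 (NCU01669, overlapping NCU01670) had 22.6 and 21.2 RPKM at 5000 lux, against 10.4 and 9.62 RPKM in darkness, and prm-1 (NCU07459) had 80.4 and 78.1 RPKM at 5000 lux, against 37.2 and 44.6 RPKM in darkness (log2 fold changes 1.06 and 0.94, limma adjusted p = 0.00143 and 0.00154). mig-2 (NCU07452, overlapping NCU07453) had 21.5 and 19.8 RPKM at 5000 lux, against 10.8 and 10.2 RPKM in darkness (log2 fold change 0.92 ± 0.10 SE, adjusted p = 0.00146 by limma). tzn-1 (NCU07621), a zinc transporter gene, had 8.47 and 7.51 RPKM at 5000 lux, against 3.75 and 3.89 RPKM in darkness (log2 fold change 0.90 ± 0.12 SE, adjusted p = 0.00305 by limma). The calls of these 6 genes held without each of the 6 libraries in turn. The largest changes, with and without a symbol, were named only where the libraries of the groups did not overlap. Their separation thus follows from the choice of genes, here and below. List members were chosen by their call and adjusted p, and runs of neighbours by their call, which itself favours separated libraries. The others of the 12 largest increases were col-20 (0.85), ad-7 (0.85), acd-1 (0.85), sre (0.83), cel-1 (0.81) and naf-2 (0.80), with limma adjusted p between 0.00146 and 0.0104. All but cel-1 lost their call without 5000 lux replicate 1.

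Larger still were 2 neighbouring genes without a symbol. NCU05512 had 212 and 214 RPKM at 5000 lux, against 59.1 and 44.5 RPKM in darkness (log2 fold change 2.03 ± 0.25 SE, adjusted p = 0.00192 by limma), and NCU17100 had 294 and 265 RPKM at 5000 lux, against 80.1 and 84.4 RPKM in darkness (log2 fold change 1.75 ± 0.19 SE, adjusted p = 0.00143 by limma). Both lie on chromosome VI and overlap each other, so their reads cannot be told apart and they may be 1 signal. At 1000 lux they had 329 and 167 RPKM and 412 and 247 RPKM, a wide gap between replicates. NCU11307 had 13.2 and 11.8 RPKM at 5000 lux, against 4.18 and 2.64 RPKM in darkness, NCU06780 25.9 and 24.7 RPKM at 5000 lux, against 9.12 and 9.81 RPKM in darkness, and NCU09057 64.5 and 59.6 RPKM at 5000 lux, against 26.6 and 23.3 RPKM in darkness. Their log2 fold changes were 1.64, 1.33 and 1.28 (limma adjusted p = 0.00844, 0.00148 and 0.000555), and the call of NCU11307 alone among these 5 genes was lost without 5000 lux replicate 1.

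Functions were described with 52 lists of gene symbols, 46 of which had at least 3 tested members. Together the 52 lists hold 826 tested genes, of which 46 were called higher and 22 lower. Calls in both directions appeared in 11 lists, higher calls alone in 14, lower calls alone in 3, and no call in 18. Lists were described by counts and medians and not tested as sets, and some genes stand in more than 1 list.

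**Figure D3:**
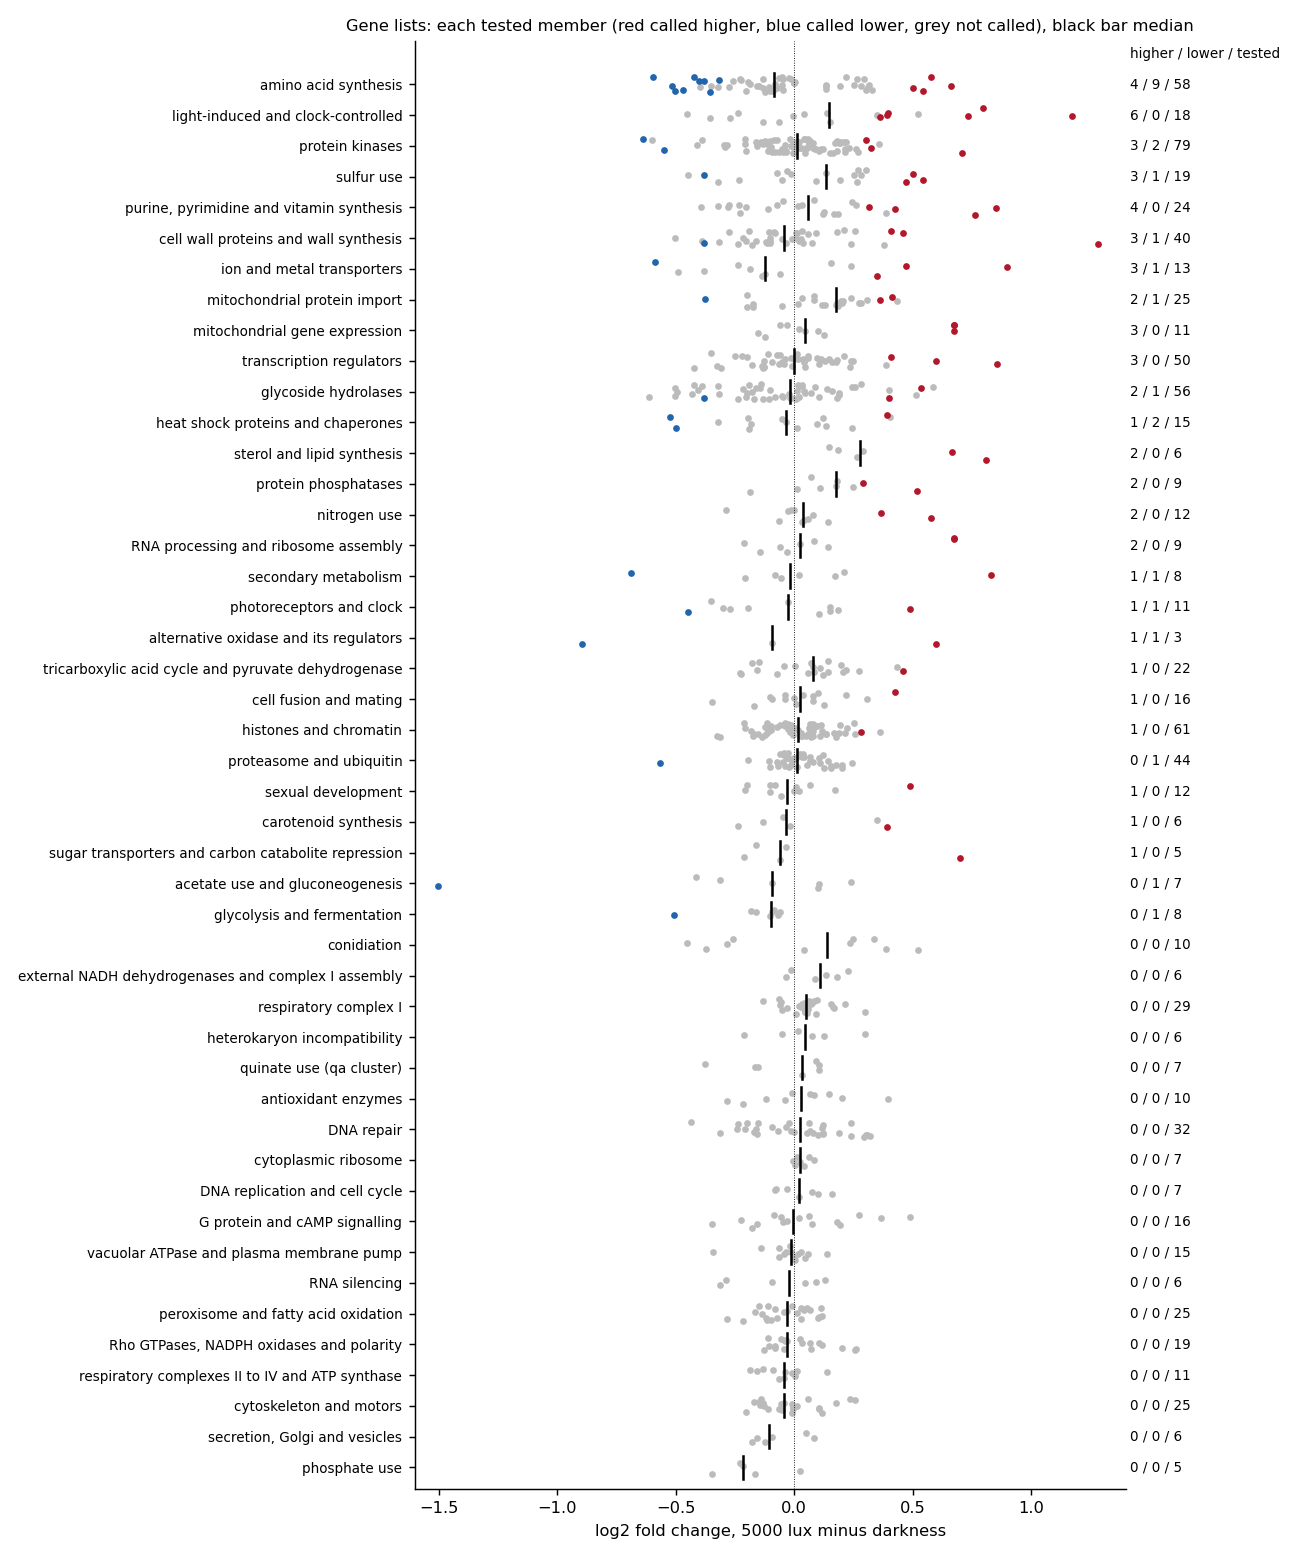
Log2 fold change at 5000 lux minus darkness of every tested member of 46 gene lists, 1 point a gene, with the list's median as a black bar and its higher, lower and tested counts at the right. Red and blue points are genes called higher and lower, and most lists have their median within 0.2 of zero with few called members.

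Of genes known in wild type as light-induced or clock-controlled, 6 rose. Of 18 tested, 6 were higher (33.3%) and 0 lower by limma (1 lower at an unadjusted p under 0.05, 0 by voom), with a median log2 fold change of 0.15 (0.0564 with quantile normalization), against 0.0227 over all tested genes (-0.0104 with quantile normalization). bli-3 (NCU07267, overlapping NCU07266), a blue-light-inducible gene, had 177 and 192 RPKM at 5000 lux, against 107 and 104 RPKM in darkness (log2 fold change 0.80 ± 0.10 SE, adjusted p = 0.00192 by limma). ccg-1 (NCU03753), a glucose-repressible and clock-controlled gene, had 1128 and 1177 RPKM at 5000 lux, against 742 and 644 RPKM in darkness (log2 fold change 0.74 ± 0.09 SE, adjusted p = 0.00206 by limma). ccg-14 had 2366 and 2337 RPKM at 5000 lux, against 1885 and 1691 RPKM in darkness, and ccg-8 had 13.9 and 14.9 RPKM at 5000 lux, against 10.6 and 11.3 RPKM in darkness (log2 fold changes 0.40 and 0.36, limma adjusted p = 0.0327 and 0.0493). In each of these genes both light libraries exceeded both dark libraries. With ccg-13 and al-2 these make up the 6. The count of 6 was 3 without either 5000 lux library and without dark replicate 2, while ccg-13, bli-3 and ccg-1 held throughout, and without 5000 lux replicate 2 the list also had 1 lower gene. The remaining 12 did not pass and ranged from -0.45 for con-8 to 0.52 for con-10, both conidiation genes. con-10 had 1.77 and 2.14 RPKM at 5000 lux, against 1.51 and 0.681 RPKM in darkness, with the groups apart, and con-8 had 11.1 and 19.5 RPKM at 5000 lux, against 22.1 and 19.1 RPKM in darkness, with the groups overlapping (limma adjusted p = 0.167 and 0.188). Also among these 12, al-3 was at 0.35, bli-4 at -0.35 and vvd at -0.27, while ccg-6, ccg-9, ccg-15 and ccg-16 lay between -0.13 and 0.14.

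Carotenoid synthesis, the orange pigment pathway, had 1 call. al-2 (NCU00585), which encodes phytoene synthase, had 43.3 and 40.9 RPKM at 5000 lux, against 33.8 and 29.9 RPKM in darkness (log2 fold change 0.39 ± 0.09 SE, adjusted p = 0.028 by limma), and the call was lost without either 5000 lux library and without dark replicate 2. al-3 (overlapping NCU01426), for geranylgeranyl diphosphate synthase, had 20.9 and 22.4 RPKM at 5000 lux, against 18.2 and 15.5 RPKM in darkness and missed the threshold at 0.35 (limma adjusted p = 0.0628), and al-1, for phytoene desaturase, had 2.65 and 3.17 RPKM at 5000 lux, against 3.68 and 3.53 RPKM in darkness with -0.24 (limma adjusted p = 0.473). The other 3 tested genes, cao-1, cao-2 and ylo-1, lay between -0.13 and -0.02. Of 10 tested conidiation genes 0 were called by limma. Their unadjusted limma p was under 0.05 for 4 higher and 3 lower genes, against 1950 of all 7841 tested genes in either direction. Voom on the recovered reads called 0 higher and 1 lower. eas (NCU08457), the conidial hydrophobin gene, had 169 and 231 RPKM at 5000 lux, against 212 and 173 RPKM in darkness, and the groups overlapped. fl, a regulator of conidiation, had 11.8 and 12.9 RPKM at 5000 lux, against 10.7 and 10.03 RPKM in darkness with 0.23 (limma adjusted p = 0.208), and rca-1 had 10.1 and 11.4 RPKM at 5000 lux, against 7.75 and 8.23 RPKM in darkness with 0.39 (limma adjusted p = 0.0661). acon-2 had 2.65 and 2.45 RPKM at 5000 lux, against 3.35 and 3.84 RPKM in darkness with -0.37 (limma adjusted p = 0.16), and fld had 15.2 and 14.6 RPKM at 5000 lux, against 18.8 and 17.3 RPKM in darkness with -0.26 (limma adjusted p = 0.147). So among conidiation genes without a call the light libraries were above the dark ones in fl and rca-1, as in csp-1 (0.25) and csp-2 (0.34), and below them in acon-2 and fld.

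Among photoreceptor and clock genes 11 were tested, 1 was higher (9.09%) and 1 lower (9.09%). frh (NCU03363), the RNA helicase that binds the clock protein FRQ, had 15.2 and 14.6 RPKM at 5000 lux, against 10.1 and 10.4 RPKM in darkness (log2 fold change 0.49 ± 0.10 SE, adjusted p = 0.0157 by limma). prd-4 (NCU02814), a checkpoint kinase gene that alters the clock's period when mutated, had 13.9 and 16.2 RPKM at 5000 lux, against 21.6 and 20.02 RPKM in darkness (log2 fold change -0.45 ± 0.12 SE, adjusted p = 0.0409 by limma). Both calls were lost without either 5000 lux library, and that of prd-4 also without either dark library. frq had 5.49 and 5.65 RPKM at 5000 lux, against 5.87 and 4.09 RPKM in darkness and wc-2 had 42.1 and 47.8 RPKM at 5000 lux, against 39.6 and 38.97 RPKM in darkness, with limma adjusted p = 0.606 and 0.235. The phytochrome gene phy-1 had 5.41 and 5.07 RPKM at 5000 lux, against 5.39 and 4.25 RPKM in darkness, and the opsin gene nop-1 had 0.894 and 1.23 RPKM at 5000 lux, against 0.892 and 0.803 RPKM in darkness, with limma adjusted p = 0.689 and 0.682. The frq and phy-1 values overlapped between the groups, those of wc-2 and nop-1 did not, and none of the 4 passed. The phytochrome gene phy-2 lay under the minimum level and was not tested.

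In carbon use, 2 genes were called lower. acu-6 (NCU09873), which encodes phosphoenolpyruvate carboxykinase, the entry step of gluconeogenesis, had 13.96 and 11.3 RPKM at 5000 lux, against 37.01 and 37.9 RPKM in darkness (log2 fold change -1.50 ± 0.12 SE, adjusted p = 0.000555 by limma). adh-1 (NCU01754, overlapping NCU01753), an alcohol dehydrogenase gene of fermentation, had 1026 and 888 RPKM at 5000 lux, against 1319.8 and 1395 RPKM in darkness (log2 fold change -0.51 ± 0.10 SE, adjusted p = 0.0105 by limma). Both dark libraries lay above both light libraries in each gene, and the adh-1 call was lost without 5000 lux replicate 2. The other 6 tested genes of acetate use and gluconeogenesis were not called, among them acu-3 (isocitrate lyase) at -0.31 (limma adjusted p = 0.122) and acu-9 (malate synthase) at -0.41 (limma adjusted p = 0.0603). Among the 7 genes of this list, acu-6 included, 1 was higher and 3 lower at an unadjusted limma p under 0.05. Voom called 0 of them higher and 2 lower. Of 8 genes of glycolysis and fermentation adh-1 alone was called, and the rest ranged from -0.18 for cfp (pyruvate decarboxylase) to -0.06, with gpd-1 (glyceraldehyde-3-phosphate dehydrogenase) at -0.16 and fba (aldolase) at -0.10. Of 22 genes of the tricarboxylic acid cycle and pyruvate dehydrogenase, 1 was higher (4.55%). This gene, tca-3 (NCU02366), had 149 and 129 RPKM at 5000 lux, against 91.1 and 111 RPKM in darkness (log2 fold change 0.46 ± 0.11 SE, adjusted p = 0.0287 by limma). Its call was lost without either 5000 lux library and without dark replicate 1. cdt-1 (NCU00801, overlapping NCU10770), a cellodextrin transporter gene, had 13.1 and 12.996 RPKM at 5000 lux, against 6.85 and 8.48 RPKM in darkness (log2 fold change 0.70 ± 0.12 SE, adjusted p = 0.00794 by limma), with the groups apart, and the call was lost without either 5000 lux library. It was the only call among 5 genes of sugar transport and carbon catabolite repression.

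The alternative oxidase, which passes electrons from ubiquinol straight to oxygen, was lower while its regulator was higher. aod-1 (NCU07953), the oxidase gene, had 13.2 and 12.5 RPKM at 5000 lux, against 25.8 and 23.7 RPKM in darkness (log2 fold change -0.90 ± 0.10 SE, adjusted p = 0.00146 by limma). aod-2 (NCU03352), a transcription factor needed for aod-1 induction, had 9.12 and 10.5 RPKM at 5000 lux, against 6.14 and 6.07 RPKM in darkness (log2 fold change 0.60 ± 0.15 SE, adjusted p = 0.0295 by limma). The groups were apart in both genes, the aod-1 call held without each library, and the aod-2 call was lost without either 5000 lux library and without either dark library. aod-5, also a regulator of aod-1, had 8.17 and 7.72 RPKM at 5000 lux, against 8.85 and 8.22 RPKM in darkness and was not called. The main respiratory chain showed no call: of 29 tested genes of complex I 0 passed limma (3 higher and 0 lower at an unadjusted p under 0.05, 1 higher by voom), with a median of 0.05 and a range of -0.13 to 0.30. Of 11 genes of complexes II to IV and the ATP synthase 0 passed limma, 0 had an unadjusted p under 0.05 and 0 passed voom, with a range of -0.18 to 0.14.

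Genes that act on mitochondrial RNA and ribosomes were among the increases. cyt-18 (NCU03030), the mitochondrial tyrosyl-tRNA synthetase that also helps splice group I introns, had 13.6 and 12.96 RPKM at 5000 lux, against 7.80 and 8.05 RPKM in darkness (log2 fold change 0.68 ± 0.11 SE, adjusted p = 0.00565 by limma). cyt-19 (NCU07670, overlapping NCU07669), a DEAD-box helicase that acts on the same introns, had 27.3 and 27.1 RPKM at 5000 lux, against 16.7 and 16.7 RPKM in darkness (log2 fold change 0.68 ± 0.10 SE, adjusted p = 0.00479 by limma). A gene the table names 37S_ribosomal_protein_Rsm22 had 13.7 and 12.8 RPKM at 5000 lux, against 7.74 and 8.11 RPKM in darkness (log2 fold change 0.68 ± 0.11 SE, adjusted p = 0.00534 by limma). With each library left out in turn, log2 fold changes were 0.645 to 0.709 for cyt-18, 0.673 to 0.682 for cyt-19 and 0.633 to 0.719 for Rsm22. Each of the 3 had its light libraries above its dark libraries, and each call was lost without 5000 lux replicate 1. They were 3 of 11 tested genes of mitochondrial gene expression (27.3%), a list drawn up after these values were seen, so the share is no more than a description. Its median was 0.0446, and -0.00614 with quantile normalization. cyt-18 and cyt-19 were also the 2 higher of 9 genes of RNA processing and ribosome assembly (22.2%). In mitochondrial protein import 2 of 25 genes were higher (8.0%, against 6.7% of all tested genes) and 1 lower (4.0%, against 2.92%). The higher genes were tom40 (the pore of the outer membrane translocase) at 0.36 and tim54 (overlapping NCU07294) at 0.41. The lower gene was tim14 (overlapping NCU00076), a J protein of the import motor, at -0.38. tom40 had 59.5 and 57.1 RPKM at 5000 lux, against 42.6 and 47.9 RPKM in darkness, and tim14 had 46.7 and 43.5 RPKM at 5000 lux, against 59.2 and 58.5 RPKM in darkness. The list's median was 0.18, and without either 5000 lux library 0 of its genes were called higher and 0 lower by limma.

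Amino acid synthesis had the most calls of any list and in both directions, with 9 lower (15.5% of 58 tested) and 4 higher (6.9%), and a median of -0.0838. On the lower side, lys-3 had 22.5 and 19.8 RPKM at 5000 lux, against 32.4 and 32.4 RPKM in darkness (log2 fold change -0.60 ± 0.11 SE, adjusted p = 0.0085 by limma). arg-5, for acetylornithine aminotransferase of arginine synthesis, had 34.5 and 32.1 RPKM at 5000 lux, against 47.4 and 47.6 RPKM in darkness (log2 fold change -0.50 ± 0.09 SE, adjusted p = 0.00842 by limma). trp-3 (overlapping NCU16588), tryptophan synthase, had 55.1 and 50.1 RPKM at 5000 lux, against 73.01 and 73.3 RPKM in darkness (log2 fold change -0.47 ± 0.09 SE, adjusted p = 0.00928 by limma). The dark libraries of the 3 genes were close to each other and above both light libraries. The other lower genes were leu-1 (isopropylmalate dehydrogenase) at -0.52, aro-3 (chorismate synthase) at -0.42, ilv-4 (overlapping NCU01667) at -0.40, met-7 (cystathionine gamma-synthase) at -0.38, aro-1 (the multifunctional arom enzyme) at -0.35 and thr-4 at -0.32. On the higher side, leu-2 (NCU04385, overlapping NCU04386), for isopropylmalate isomerase, had 61.05 and 61.5 RPKM at 5000 lux, against 37.4 and 39.5 RPKM in darkness (log2 fold change 0.66 ± 0.08 SE, adjusted p = 0.0021 by limma). gln-1 (NCU06724), a glutamine synthetase gene, had 141 and 127 RPKM at 5000 lux, against 89.6 and 89.3 RPKM in darkness (log2 fold change 0.58 ± 0.09 SE, adjusted p = 0.00426 by limma). The leucine pathway thus held a higher and a lower gene. The leu-2 call held without each library. The lower count of the list was 0 without 5000 lux replicate 2, 3 without 5000 lux replicate 1, 4 without dark replicate 2 and 6 without dark replicate 1, and its higher count was 1 without 5000 lux replicate 1.

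Sulfur use gave 3 of the increases. cys-11 (NCU01985), for ATP sulfurylase, the first step of sulfate assimilation, had 130.4 and 121 RPKM at 5000 lux, against 82.6 and 94.7 RPKM in darkness (log2 fold change 0.50 ± 0.09 SE, adjusted p = 0.00861 by limma). cys-14 (NCU04433), a sulfate permease gene, had 65.3 and 56.3 RPKM at 5000 lux, against 41.5 and 45.3 RPKM in darkness (log2 fold change 0.47 ± 0.12 SE, adjusted p = 0.0335 by limma). cys-4 (NCU05238) had 63.8 and 53.7 RPKM at 5000 lux, against 37.7 and 42.2 RPKM in darkness (log2 fold change 0.54 ± 0.11 SE, adjusted p = 0.0132 by limma). In all 3 genes the light libraries were above the dark libraries. Of 19 tested genes of sulfur use 3 were higher (15.8%) and met-7 was lower, with a median of 0.13, in a list drawn up after these values were seen. cys-3, the activator of sulfur genes, had 114 and 107 RPKM at 5000 lux, against 105 and 102 RPKM in darkness with 0.09 (limma adjusted p = 0.528). Without 5000 lux replicate 1 the list had 0 higher genes, without dark replicate 1 it had 1, and without 5000 lux replicate 2 it had 2. In nitrogen use 2 of 12 genes were higher (16.7%), gln-1 and en(am)-2 (glutamate synthase, NCU01744), the second with 35.2 and 37.8 RPKM at 5000 lux, against 28.7 and 27.5 RPKM in darkness (log2 fold change 0.37 ± 0.09 SE, adjusted p = 0.0295 by limma). Leaving out 5000 lux replicate 1 ended both calls, and leaving out the second library of either group left gln-1 alone. nit-3 (nitrate reductase) and nit-6 (nitrite reductase) were at 0.14 and 0.08, with groups that overlapped.

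Both fatty acid synthase genes rose. cel-1 (NCU07308) and cel-2 (NCU07307), neighbours on chromosome IV that encode the 2 fatty acid synthase subunits, had 112 and 122 RPKM at 5000 lux, against 62.2 and 70.8 RPKM in darkness, and 115 and 125 RPKM at 5000 lux, against 73.4 and 76.7 RPKM in darkness. The tests gave log2 fold change 0.81 ± 0.09 SE, adjusted p = 0.00146 by limma, for cel-1 and log2 fold change 0.67 ± 0.08 SE, adjusted p = 0.00192 by limma, for cel-2. Both light libraries were well above both dark libraries, and the calls held without each library. The 4 other tested genes of sterol and lipid synthesis, chol-1, erg-1, erg-3 and erg-4, were not called and ranged from 0.15 to 0.29, and the list's median of 0.28 was the highest of the 46. In purine, pyrimidine and vitamin synthesis 4 of 24 were higher (16.7%) and 0 lower by limma (4 lower at an unadjusted p under 0.05, 0 by voom). ad-7 (NCU04216), for the committed step of purine synthesis, had 24.6 and 20.3 RPKM at 5000 lux, against 10.4 and 13.7 RPKM in darkness (log2 fold change 0.85 ± 0.15 SE, adjusted p = 0.00802 by limma). nic-7 (NCU03963), named for a requirement for nicotinic acid, had 32.8 and 29.1 RPKM at 5000 lux, against 19.5 and 16.2 RPKM in darkness (log2 fold change 0.76 ± 0.11 SE, adjusted p = 0.00419 by limma). bio-1 and ad-8 (overlapping NCU09788) were at 0.42 and 0.32. The groups were apart in all 4, but without 5000 lux replicate 1 the list had 0 calls and without 5000 lux replicate 2 it had 2.

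Genes of wall proteins and wall synthesis were called higher about as often as all tested genes. Beside ncw-5, ncw-6 (NCU00586) had 41.2 and 38.3 RPKM at 5000 lux, against 28.4 and 28.9 RPKM in darkness (log2 fold change 0.46 ± 0.08 SE, adjusted p = 0.00958 by limma), and ncw-3 (NCU07817) had 1056 and 971 RPKM at 5000 lux, against 785 and 742 RPKM in darkness (log2 fold change 0.41 ± 0.09 SE, adjusted p = 0.0188 by limma). They were 3 of 40 tested genes of wall proteins and wall synthesis (7.5%, against 6.7% of all tested genes), with gh18-5 (overlapping NCU04553), a family 18 chitinase gene, as the 1 lower at -0.38, and a median of -0.0422. Without 5000 lux replicate 1, ncw-5 was the only one of these 3 wall protein genes still called, and ncw-3 also lost its call when the second library of either group was left out. Of 56 glycoside hydrolase genes 2 were higher (3.57%), gh28-1 (overlapping NCU02368), a polygalacturonase gene, and gh2-1 (overlapping NCU00891), and 1 lower (gh18-5). The higher count was 0 without either 5000 lux library and without dark replicate 1, gh2-1 lost its call without any 1 of the 6 libraries, and gh18-5 lost its call without any 1 of the libraries at 5000 lux and in darkness. gh28-1 had 63.5 and 64.6 RPKM at 5000 lux, against 47.2 and 49.4 RPKM in darkness (log2 fold change 0.40 ± 0.09 SE, adjusted p = 0.024 by limma). Among 13 ion and metal transporters 3 were higher (23.1%), tzn-1, cys-14 and nca-1 (a calcium ATPase gene overlapping NCU03304, 0.35), and 1 lower. Without either 5000 lux library or dark replicate 1, tzn-1 was the 1 higher gene left. The lower one, tcu-1 (NCU00830), a copper transporter gene, had 21.2 and 21.7 RPKM at 5000 lux, against 32.1 and 33.4 RPKM in darkness (log2 fold change -0.59 ± 0.13 SE, adjusted p = 0.0203 by limma), with a call lost without either 5000 lux library and without dark replicate 2. Of 8 secondary metabolism genes sre (NCU07728), the GATA factor that represses siderophore synthesis, was higher with 8.85 and 8.26 RPKM at 5000 lux, against 4.45 and 4.29 RPKM in darkness (log2 fold change 0.83 ± 0.14 SE, adjusted p = 0.00675 by limma), and lacc (NCU04528), a laccase gene, was lower with 1.82 and 1.89 RPKM at 5000 lux, against 3.33 and 3.90 RPKM in darkness (log2 fold change -0.69 ± 0.17 SE, adjusted p = 0.0344 by limma). The sre call was lost without 5000 lux replicate 1, and the lacc call without any 1 of the 4 libraries at 5000 lux and in darkness.

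Protein kinases, protein phosphatases and transcription regulators had 2 to 5 calls each. Of 79 protein kinase genes 3 were higher (3.8%) and 2 lower (2.53%). stk-52 (NCU08767) had 21.9 and 20.8 RPKM at 5000 lux, against 12.9 and 12.5 RPKM in darkness (log2 fold change 0.71 ± 0.09 SE, adjusted p = 0.00231 by limma), and this call held without each library. camk-4 was at 0.32, and os-2 (NCU07024), the osmosensing MAP kinase, at 0.30, while stk-34 (NCU05638) was at -0.64 and stk-24 (NCU03796) at -0.55. Without either 5000 lux library 0 kinases were lower by limma and 1 was higher, and stk-52 alone was higher also when dark replicate 2 or a 1000 lux library was left out. Of 9 protein phosphatase genes 2 were higher (22.2%), pp-2 (overlapping NCU01614) at 0.52 and cnb-1, the calcineurin regulatory subunit, at 0.29. The count was 0 without either 5000 lux library and without dark replicate 2, and cnb-1 lost its call without any 1 of the 6 libraries. Of 50 transcription regulators col-20, ada-1 and aod-2 were higher (6.0%) and 0 lower by limma (3 lower at an unadjusted p under 0.05, 2 by voom). col-20 (NCU00945) had 12.4 and 13.3 RPKM at 5000 lux, against 5.55 and 7.98 RPKM in darkness (log2 fold change 0.85 ± 0.15 SE, adjusted p = 0.00755 by limma). ada-1 (NCU00499, overlapping NCU16460) had 142 and 147 RPKM at 5000 lux, against 108 and 109.99 RPKM in darkness (log2 fold change 0.41 ± 0.08 SE, adjusted p = 0.00944 by limma). In both the groups were apart, and without either 5000 lux library 0 regulators were called by limma. Single higher calls fell in cell fusion (ham-6, 0.42, 1 of 16 or 6.25%) and chromatin (hH1, the linker histone, 0.28, 1 of 61 or 1.64%). Sexual development also had 1 (asd-4, a GATA factor gene of ascus development, 0.49, 1 of 12 or 8.33%). Of all tested genes 6.7% were called higher. hH1 had 184 and 185 RPKM at 5000 lux, against 153 and 151 RPKM in darkness, a narrow gap without overlap, and leaving out any 1 of the 6 libraries ended its call. ham-6 and asd-4 lost theirs without either 5000 lux library and without dark replicate 2, and asd-4 also without either 1000 lux library.

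Protein folding and turnover had few calls. hsp80 (NCU04142), the Hsp90 gene, had 231 and 232 RPKM at 5000 lux, against 329 and 327 RPKM in darkness (log2 fold change -0.50 ± 0.08 SE, adjusted p = 0.00478 by limma). hsp30 (NCU09364, overlapping NCU10352), a small heat shock protein gene, had 4.84 and 4.69 RPKM at 5000 lux, against 7.12 and 7.43 RPKM in darkness (log2 fold change -0.52 ± 0.12 SE, adjusted p = 0.025 by limma). hsp70-2 (NCU02075) had 442 and 425 RPKM at 5000 lux, against 309 and 353 RPKM in darkness (log2 fold change 0.39 ± 0.09 SE, adjusted p = 0.0202 by limma). So 2 of 15 heat shock and chaperone genes were lower (13.3%) and 1 higher (6.67%), and in each the groups were apart. The hsp80 log2 fold change stayed within -0.505 to -0.495 with each library left out in turn. Its call was lost without 5000 lux replicate 1 alone. Without it 0 genes of the list were called, and there was 1 lower and 0 higher when 5000 lux replicate 2 or dark replicate 1 was left out. Of 44 proteasome and ubiquitin genes 1 was lower (2.27%, against 2.92% of all tested genes). This gene, rpn-4 (NCU01640), is named for the yeast transcription factor of proteasome genes. It had 13.8 and 16.8 RPKM at 5000 lux, against 24.4 and 21.6 RPKM in darkness (log2 fold change -0.57 ± 0.13 SE, adjusted p = 0.0219 by limma). The call was lost without 5000 lux replicate 1 and without dark replicate 1.

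A group of 18 lists held no call by limma. They hold 237 distinct tested genes and include cytoplasmic ribosomal proteins, respiratory complexes, DNA repair, the cytoskeleton, peroxisomes, G protein and cAMP signalling, antioxidant enzymes and the vacuolar ATPase. Summed over these lists, 19 genes higher and 10 lower had an unadjusted limma p under 0.05. Voom on the recovered reads called 2 higher and 3 lower. Over all 7841 tested genes 1950 had such a p in either direction, and voom called 613 higher and 332 lower. The 7 ribosomal protein genes lay within -0.00549 to 0.0862 on the log2 scale, and crp-7 had 1557 and 1537 RPKM at 5000 lux, against 1499.6 and 1461 RPKM in darkness. The median farthest from 0 among the 18 lists was that of phosphate use, -0.22 over 5 genes, in which nuc-1, the activator of phosphorus acquisition genes, had 21.01 and 20.4 RPKM at 5000 lux, against 27.95 and 25.2 RPKM in darkness and missed the threshold at limma adjusted p = 0.0502.

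Among called genes without a symbol, the 5 largest decreases ranged from -1.31 to -5.71 on the log2 scale. NCU09774 had 2.25 and 2.31 RPKM at 5000 lux, against 6.35 and 7.94 RPKM in darkness (log2 fold change -1.31 ± 0.14 SE, adjusted p = 0.00146 by limma), and NCU09640 had 0.284 and 0.919 RPKM at 5000 lux, against 2.97 and 3.55 RPKM in darkness (log2 fold change -1.44 ± 0.21 SE, adjusted p = 0.00419 by limma). Both calls held without each library. NCU09768 had 0.369 and 0.179 RPKM at 5000 lux, against 1.61 and 3.66 RPKM in darkness, and NCU07812 had 0.276 and 0.000 RPKM at 5000 lux, against 1.24 and 2.64 RPKM in darkness, and both passed the level filter through the dark libraries alone, as did 6 called genes in all. Their calls were lost without either 5000 lux library and without dark replicate 2. NCU15731, a ribosomal RNA gene on an unplaced sequence, had 0.117 and 0.0706 RPKM at 5000 lux, against 42.05 and 75.2 RPKM in darkness, and 1.64 and 26.3 RPKM at 1000 lux (log2 fold change -5.71 ± 0.79 SE, adjusted p = 0.00315 by limma). Copies of ribosomal RNA genes are nearly identical and the counting of shared reads is not given, so this value is uncertain. Of genes with a symbol, anx14 (NCU04421), an annexin gene, had 10.3 and 10.7 RPKM at 5000 lux, against 19.2 and 18.3 RPKM in darkness (log2 fold change -0.78 ± 0.16 SE, adjusted p = 0.0132 by limma), and mig-11 (NCU00187) had 8.25 and 9.71 RPKM at 5000 lux, against 13.5 and 14.3 RPKM in darkness (log2 fold change -0.58 ± 0.11 SE, adjusted p = 0.0107 by limma). In both genes the dark libraries were higher without overlap. A table entry named only as a hypothetical protein, with no locus tag, was counted with the symbols and completed their 12 largest decreases at -0.56.

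Across the 3 conditions, named genes differed in where they were highest. At 5000 lux against 1000 lux 130 genes were higher (1.66%) and 107 lower (1.36%). That comparison shares its 5000 lux libraries with the one above, so the values are set side by side. al-2 had 33.8 and 29.9 RPKM in darkness, then 24.7 and 25.5 under 1000 lux, then 43.3 and 40.9 under 5000 lux, and was lower than darkness at 1000 lux (-0.33) and higher at 5000 lux (0.39). ad-8 had 90.95 and 85.3 RPKM in darkness, then 68.1 and 70.04 under 1000 lux, then 116 and 104 under 5000 lux, with log2 fold changes from darkness of -0.35 at 1000 lux and 0.32 at 5000 lux. The difference between 5000 and 1000 lux was 0.72 for al-2 and 0.66 for ad-8 (limma adjusted p = 0.00572 and 0.00572). These 2 genes were lowest at 1000 lux and highest at 5000 lux. The call of ad-8 at 5000 lux against darkness was lost without any 1 of the 6 libraries. ada-1 had 108 and 109.99 RPKM in darkness, then 105 and 105 under 1000 lux, then 142 and 147 under 5000 lux, near its dark level at 1000 lux, and differed between 5000 and 1000 lux by 0.46 (limma adjusted p = 0.0117). NCU09640 had 2.97 and 3.55 RPKM in darkness, then 3.05 and 3.08 under 1000 lux, then 0.284 and 0.919 under 5000 lux, also near darkness at 1000 lux (-1.37 at 5000 against 1000 lux, limma adjusted p = 0.0104). tcu-1 had 32.1 and 33.4 RPKM in darkness, then 47.9 and 35.3 under 1000 lux, then 21.2 and 21.7 under 5000 lux, and was lower at 5000 than at 1000 lux with a change of -0.91 on the log2 scale (limma adjusted p = 0.00833). ncw-5, ccg-13, ncw-3 and gh28-1 were higher than darkness at both intensities and highest at 1000 lux, with -0.96, -0.90, -0.53 and -1.03 at 5000 against 1000 lux. gh28-1 had 47.2 and 49.4 RPKM in darkness, then 122 and 142 under 1000 lux, then 63.5 and 64.6 under 5000 lux. aod-1 and arg-5 were lower than darkness at both and lowest at 1000 lux, with 0.47 and 0.41 at 5000 against 1000 lux, and cel-2 was highest at 5000 lux (0.36). NCU09774 was lower at each higher intensity, with 6.35 and 7.94 RPKM in darkness, then 4.15 and 4.07 under 1000 lux, then 2.25 and 2.31 under 5000 lux (-0.64 at 5000 against 1000 lux). The limma adjusted p of the last 8 genes in this comparison lay between 0.000693 and 0.0488. At 1000 lux against darkness 9.13% of tested genes were higher and 7.82% lower, and amino acid synthesis had 30 lower and 4 higher genes, beside 9 and 4 at 5000 lux. The difference in these counts was not tested, and both share the dark libraries.

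**Figure D4:**
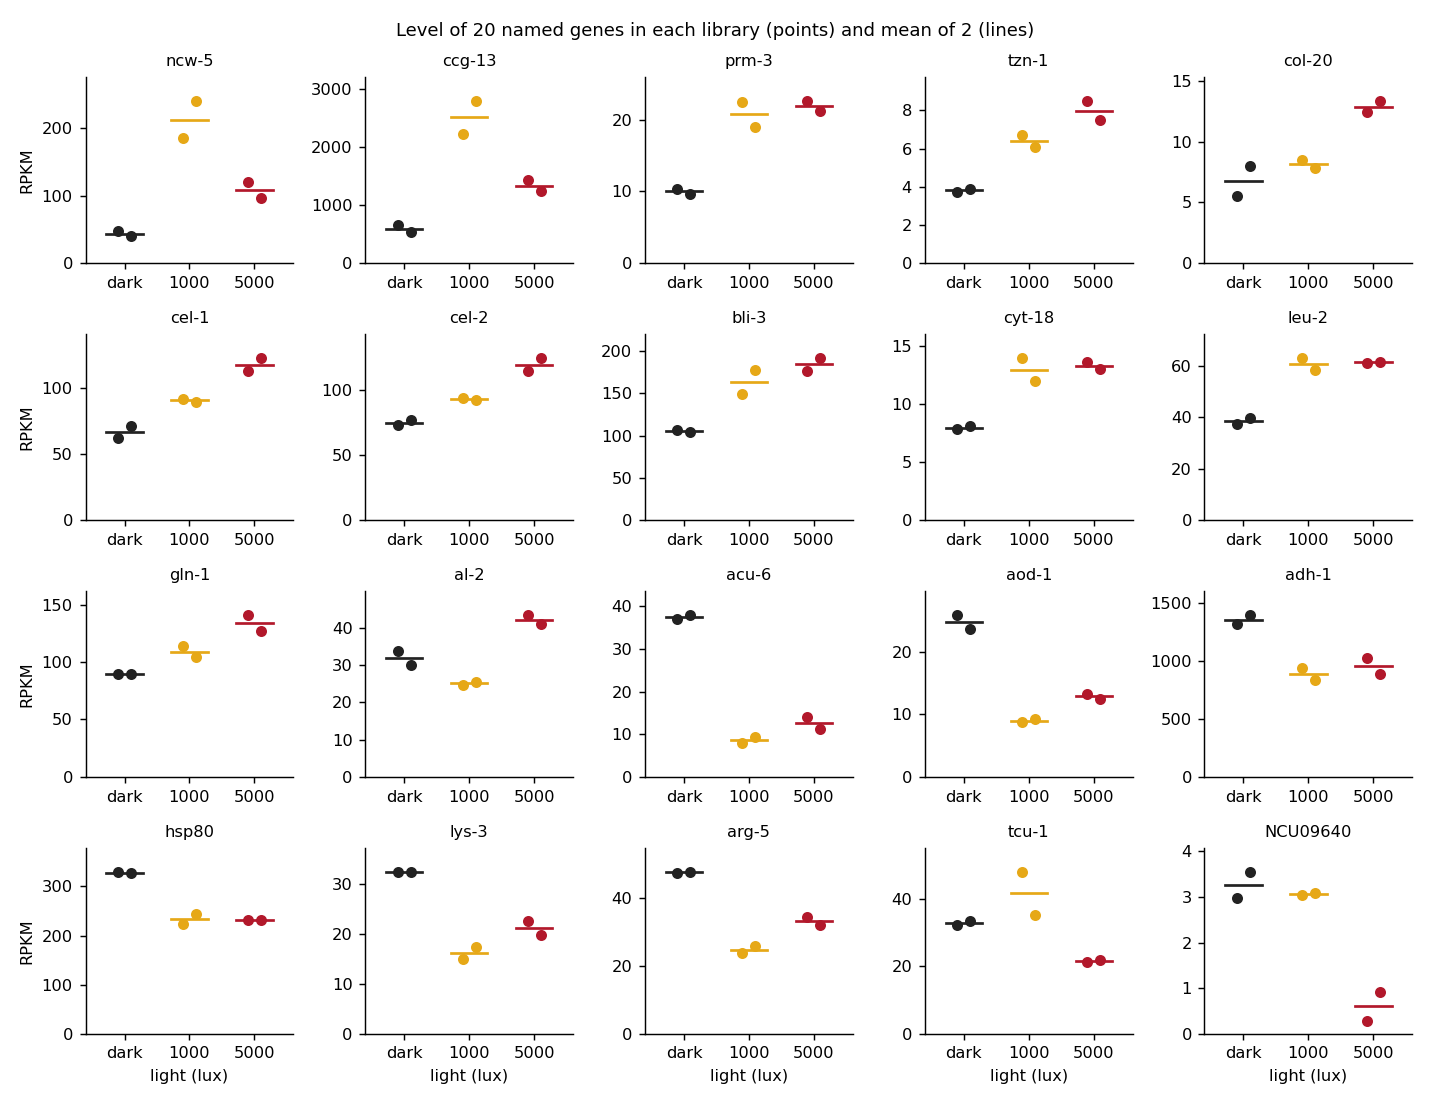
RPKM of 20 named genes in each library (points) and the mean of the 2 libraries (lines), in darkness, at 1000 lux and at 5000 lux, each panel on its own axis from 0. The genes were picked by hand from the named genes, and in all of them the 5000 lux points do not overlap the dark points. The 1000 lux points may lie above both, between them or below both.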

How the data were processed

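Polyadenylated RNA of 6 libraries was sequenced, 2 in darkness, 2 at 1000 lux and 2 at 5000 lux, and samples were grouped by the labels. The authors deposited 1 table of RPKM values for all libraries. CASAVA 1.8 and HISAT are named, without their roles, in the submitters' processing notes. The counting tool, its strand setting, the annotation and the build remain unknown, as not given in the sources used here. Of 10559 genes, 10526 were matched to RefSeq genes of the NC12 assembly, which gave symbols, gene types, chromosomes and neighbours. By these annotations 2396 of them overlap another gene, so reads of such pairs cannot be told apart.

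The tested genes reached 1 RPKM in 2 or more of the 6 libraries. On log2(RPKM + 1) values limma 3.58.1 (R 4.3.3) was fitted to the 3 groups together, the variance prior following the intensity, with 3 residual and 6.87 prior degrees of freedom. A call is an adjusted p under 0.05 after Benjamini-Hochberg adjustment over the 7841 genes, and a fold change on this scale understates that of low genes. Just inside the filter was NCU16743, whose second-highest value was 1.01 RPKM, and just outside it NCU09415 with 0.999. Depth was recovered from the steps between RPKM values: all 9773 genes above 0 gave whole reads in all libraries, within 0.005 reads plus a relative 3e-07. The denominators were 21420000 to 28260000 reads, 76.54% to 77.16% of them on genes, and 3 reads in a gene of 2000 bp equal 0.0531 to 0.07 RPKM.

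The comparison, members and lists were chosen with earlier results of these data known. Named genes are, among called genes whose libraries do not overlap, the 12 largest increases and decreases with a symbol and the 5 of each without one. Without that condition, up to 4 called members a list, the genes in runs of neighbours and the labelled deletions were added, giving 96 genes. Members named beyond these complete a list or give its context, and were chosen after their values were seen. From lists made by symbol, 26 entries of another function were removed, and 5 lists were added, after values were seen. The 6 lists with under 3 tested members were mitochondrial ribosome, other carbohydrate-active enzymes, translation factors, autophagy, cytochrome P450 and proteases, with 0 calls among them (2 lower genes at an unadjusted p under 0.05, 1 lower by voom). Alternatives were other pseudocounts, filters, scalings and variance settings, library weights, a replicate block, voom on recovered reads, protein-coding genes (added after seeing the data) and leaving out each library. The steps were tested on simulated data. Protein classes and promoter motifs were not analysed here.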

Additional observations from a re-analysis of the deposited data

How the results depend on the processing

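At 5000 lux against darkness 754 genes were called, 525 of them higher. Without a low-value filter 463 were called (340 higher), and without the variance trend 479 (337 higher), the remaining calls being lower in each case. Median-of-ratios scaling and quantile normalization gave 896 and 867 calls, of which 371 were lower in both, against 229 with the deposited scaling. Leaving out 1 library gave 142 to 686 calls in all, 104 to 527 of them higher and 38 to 230 lower; the lone library of a group is then assumed to vary like the others. Under the other settings 666 to 945 genes were called. The cause of these moves was not tested. None of the called genes named by the rule changed sign. For these genes a call lost without 1 library is thus not a change of direction. The count of all calls also fell most without either 5000 lux library. The median over all tested genes, 0.0227, turned to -0.00628 with median-of-ratios scaling, -0.0104 with quantile normalization, -0.00622 without dark replicate 2 and -0.00534 without the filter, and 9 and 13 of 46 list medians changed sign under the first 2 of these settings. Of the 93 called genes named by the rule, 68 and 50 lost their call when 5000 lux replicate 1 or 2 was left out, 23 and 27 when dark replicate 1 or 2 was, 28 without the trend and 26 without the filter, and 23 kept it without each library. Libraries with the same replicate number shared little in their deviations from the group means (correlations of -0.0872 to 0.0515). The labels do not state whether samples were paired, and these values cannot decide it. The replicate block gave 794 calls, 558 of them higher, and changed no named call. Under 5 RPKM 0.986% of genes were called higher and 1.73% lower.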

Other observations

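Neighbouring genes were sometimes called together. With 9.62% of all tested genes called, some neighbours are called together without any link. An excess of pairs or runs of neighbours was not tested. Among 5310 pairs of neighbouring tested genes that do not overlap in the reference, 66 had both genes called, 41 of them both higher at 5000 lux, 13 both lower and 12 in opposite directions. Among 1011 overlapping pairs 11 had both called, 9 both higher and 2 both lower, and there shared reads cannot be told apart.

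Runs of at least 3 neighbours called in the same direction numbered 6. The longest, on chromosome II, holds NCU01786, NCU01785, NCU16559 and NCU01784, with log2 fold changes of 0.64, 0.64, 0.80 and 0.68; NCU01785 and NCU16559 overlap each other. All 4 lost their call without 5000 lux replicate 1, as did every gene of the 6 runs other than NCU09382 and NCU09380. On chromosome I, NCU09382, NCU09381 and NCU09380 were higher at 0.87, 0.42 and 1.04, and the calls of the first and the last held without each library. NCU09382 and NCU09381 overlap each other, so their reads cannot be told apart. NCU09380 had 25.4 and 26.2 RPKM at 5000 lux, against 12.2 and 11.8 RPKM in darkness. The 1 run that was lower, on chromosome VII, holds NCU06063, NCU06062 and NCU06061 at -0.60, -0.64 and -0.71, and none of the 3 overlaps another gene. NCU06061 had 30.5 and 34.2 RPKM at 5000 lux, against 51.8 and 55.6 RPKM in darkness, with a limma adjusted p of 0.00421, and its call was lost without 5000 lux replicate 1. The remaining 3 runs, all higher, were NCU03203 to NCU03205 on chromosome I, NCU01807 to NCU01805 on chromosome II and NCU05303 to NCU05301 on chromosome IV. Here too NCU03203 and NCU03204 overlap each other, as do NCU01807 and NCU01806. The reference table gives no symbol to any gene of these runs, so their functions are not described here.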
